A study of Mus musculus with 12 samples.

Results

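The data described here cover 10 receptor tyrosine kinase genes in mouse liver: Fgfr1, Fgfr2, Fgfr3, Ntrk2, Egfr, Erbb2, Erbb3, Met, Axl and Ddr1. They were taken by gene symbol from the deposited count table of 24421 genes, and all 10 had enough counts to be tested. The set was chosen by the measured levels of Fgfr3 and Ntrk2, which were lower on ACR in LiKM mice. That difference is therefore given below as values without a test, and the same holds for the other 8 genes in those 6 livers.

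Total RNA was taken from liver tissue free of tumour of males of 2 mouse strains, LiK and LiKM, at an age of 4 months, and sequenced with a stranded mRNA kit. Both strains received a normal diet or, starting at 5 weeks of age, a diet with 0.06% ACR, an acyclic retinoid studied against liver cancer, which gave 4 groups of 3 mice, called LiK-normal, LiK-ACR, LiKM-normal and LiKM-ACR below. The numbered titles of a group are taken as separate mice. Strains are compared within a diet and diets within a strain. The labels do not state the genotypes. From knowledge of the study, LiKM mice are meant to lack Mdm2, which marks p53 for degradation, in hepatocytes. No source used here gives the driver of that deletion or the hour at which tissue was collected. The tissue holds every cell type of the liver, so for each level below fewer cells of a type and less RNA per cell cannot be told apart.

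Receptor tyrosine kinases span the cell membrane, bind a ligand outside and, once paired, phosphorylate tyrosines on each other and on adaptor proteins inside, which feeds the Ras to ERK and PI3K to AKT pathways. In the liver, Egfr and Met carry growth signals to hepatocytes after injury, Erbb3 pairs with other ErbB receptors because its own kinase is weak, and the FGF receptors take part in bile acid and metabolic control. Axl is a receptor for Gas6 on macrophages and stellate cells, Ddr1 is a collagen receptor of epithelia, and Ntrk2, the receptor for BDNF, is best known from neurons.

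Promoter sequences of 8 of the 10 genes are in RefSeq (GRCm38.p6), as windows from 250 bases before to 50 bases after a transcription start. The 3 shown belong to the receptors with the clearest values on ACR in LiK mice, Fgfr3 and Ntrk2 with lower levels and Fgfr2 with higher ones. The Fgfr3 window is the first of its 2 entries and spans chr5:33721474-33721773 on the plus strand. The Ntrk2 window spans chr13:58806319-58806618 on the plus strand, and the Fgfr2 window spans chr7:130266759-130267058 on the minus strand. They read 5′ to 3′, with each CpG dinucleotide in capitals.
Fgfr3: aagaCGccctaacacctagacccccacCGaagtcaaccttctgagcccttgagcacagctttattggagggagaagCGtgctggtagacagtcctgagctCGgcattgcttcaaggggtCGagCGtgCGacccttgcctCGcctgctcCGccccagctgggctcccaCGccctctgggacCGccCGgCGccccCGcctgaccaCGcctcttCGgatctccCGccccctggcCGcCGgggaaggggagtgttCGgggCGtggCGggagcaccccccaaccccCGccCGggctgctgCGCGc
Ntrk2: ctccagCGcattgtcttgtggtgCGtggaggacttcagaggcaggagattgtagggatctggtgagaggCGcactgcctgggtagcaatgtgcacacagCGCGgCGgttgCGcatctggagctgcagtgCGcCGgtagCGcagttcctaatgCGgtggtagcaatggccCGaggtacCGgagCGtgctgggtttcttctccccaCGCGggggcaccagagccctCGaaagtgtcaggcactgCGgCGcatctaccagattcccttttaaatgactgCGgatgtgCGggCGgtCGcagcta
Fgfr2: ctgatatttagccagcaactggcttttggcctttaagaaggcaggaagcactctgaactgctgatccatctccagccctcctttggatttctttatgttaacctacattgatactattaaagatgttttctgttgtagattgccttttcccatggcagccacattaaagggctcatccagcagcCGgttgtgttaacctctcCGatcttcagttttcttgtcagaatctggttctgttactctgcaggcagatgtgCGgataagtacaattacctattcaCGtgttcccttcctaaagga
The Fgfr3 window holds 26 CpG dinucleotides and the Ntrk2 window 23, whereas the Fgfr2 window holds 4. Over all 32851 promoter windows of this length the median is 7 and the quartiles are 3 and 20. At least 23 CpG are found in 21.5% of windows, and at least 4 in 68.6%. Motifs were searched on both strands of the 12 windows of the 8 genes. The core retinoid receptor motif AGGTCA, held by 16.3% of all windows, was in none of them. Direct repeats of it with 5 or 2 bases between the copies, which 0.00913% of all windows hold for each spacing, were therefore absent too. The E-box CACGTG (7.15% of all windows) starts at position 279 of the Fgfr2 window, counted from 1 at its 5′ end, and at position 125 of a Met window. The TEAD motif GGAATG (14.7%) starts at position 163 of an Erbb2 window and at position 18 of an Axl window, and the D-box TTATGTAA (0.938%) was in none. A match or its absence describes these letters and says nothing of binding.

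Libraries held 10124813 to 18647156 counts. Hepatocyte markers dominated in all groups, with the sum of 8 such genes between 88352 and 163656 CPM (counts scaled to the effective library size). Mdm2 was not lower in the libraries labelled LiKM, at 31.4 ± 3.18 CPM on the normal diet and 48.8 ± 17.7 on ACR against 24.4 ± 1.24 and 22.5 ± 0.989 in LiK (mean ± SD, n = 3, as for all levels). On ACR Mdm2 rose 2.17-fold in LiKM (edgeR adjusted p = 0.0101), and on the normal diet its difference did not pass (0.222). On both diets every LiKM liver lay above every LiK liver. A whole-gene count does not check a deletion of single exons. Cell type markers and clock genes moved with the groups and touch results below. The sum of 10 biliary and progenitor markers was 35.4 to 53.0 CPM in LiK-normal, 36.4 to 185 in LiK-ACR, 604 to 1029 in LiKM-normal and 340 to 524 in LiKM-ACR. The sum of 12 circadian clock genes was 571 to 625 CPM in LiK-normal, 875 to 937 in LiK-ACR, 472 to 614 in LiKM-normal and 268 to 494 in LiKM-ACR.

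Between the strains on the normal diet, 4 of the 10 receptors rose in LiKM (Fgfr1, Fgfr3, Erbb2 and Ddr1), Met fell, and the other 5 did not pass the test (edgeR adjusted p under 0.05 over 13880 genes). The LiKM livers of both strain comparisons are those by which Fgfr3 and Ntrk2 were chosen. The strain values of these 2 genes, the Fgfr3 call among them, are therefore not independent of the choice. The background is wide: 21.8% of all genes tested passed, 13.2% higher and 8.61% lower. The same 5 receptors, and no others of the 10, had LiK and LiKM livers that did not overlap, as 40.1% of all genes did (20.7% higher and 19.4% lower). On ACR, Ddr1 rose and Met fell, against a background of 9.79% of genes, 5.55% higher and 4.24% lower. In 5 of the 10 the livers did not overlap on ACR, with Erbb2, Axl and Ddr1 higher and Fgfr2 and Met lower in LiKM, beside 33.3% of all genes (17.2% higher and 16% lower). Between the diets in LiK no receptor passed by edgeR, where 0.195% of genes did (0.13% higher and 0.0648% lower). At an unadjusted edgeR p under 0.05 there were 3 (Fgfr2, Fgfr3 and Ntrk2), beside 1953 of all 13880 genes. By DESeq2, 2 passed (Fgfr2 and Ntrk2), beside 397 of all genes. In 4 of the 10 these groups did not overlap, with Fgfr2 and Erbb3 higher and Fgfr3 and Ntrk2 lower on ACR, beside 28.1% of all genes (13.4% higher and 14.6% lower). The median log2 fold change of the 10 was 0.58 between the strains on the normal diet, -0.05 between them on ACR and 0.25 between the diets in LiK, beside 0.02, 0.02 and 0.01 over all genes. Comparisons share groups of livers, so their values are not independent of each other.

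**Figure D1:**
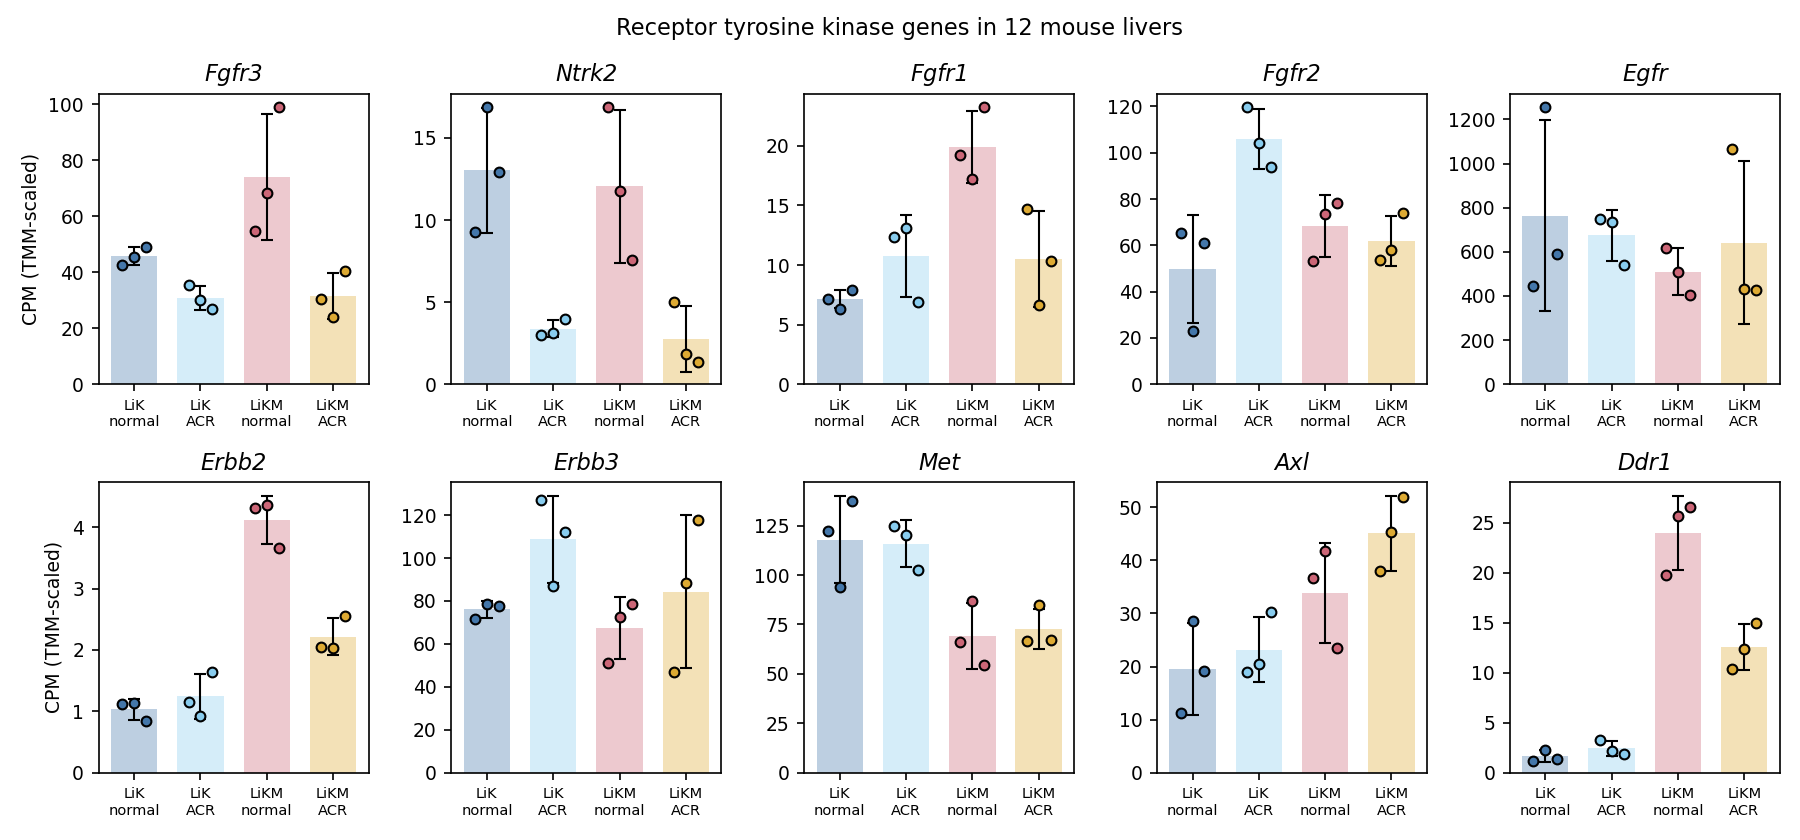
Level of each of the 10 receptors in CPM (vertical axes, starting at 0) in the 4 groups, with a point for each liver and bars with whiskers for the mean ± SD of 3 livers. Fgfr3 and Ntrk2 are low in both groups on ACR, and Ddr1 and Erbb2 are highest in LiKM-normal.

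Fgfr3, a receptor for FGFs best known for restraining bone growth (chr5:33721674-33737068 in mm10), stood at 42.7, 45.4 and 49.2 CPM in the livers of LiK-normal mice and at 35.6, 30.2 and 27.0 CPM in LiK-ACR. Its level was 54.8, 68.3 and 98.9 CPM in LiKM-normal and 30.4, 23.999 and 40.3 CPM in LiKM-ACR. All 6 livers on ACR lay below all 6 on the normal diet, and LiKM-normal lay above LiK on that diet without overlap. The lower level in LiKM is what chose the gene, so the split by diet is not independent of the choice. The share of all genes split in this way was not counted. In LiK, whose livers played no part in the choice of the gene, the log2 fold change on ACR was -0.56 (SE 0.22, 95% interval -1.05 to -0.08), which did not pass (edgeR adjusted p = 0.288). Nor did it pass in 20 of 23 alternatives, among them DESeq2 (adjusted p = 0.230). It passed with the 6 LiK livers fitted alone (adjusted p = 0.0288) and with the numbers of LiKM mice as a block (0.0389). Over all genes these fits called 812 and 701, against 27 in the main fit. Leaving out LiKM-normal 3 and LiKM-ACR 2 and 3, which leaves 1 liver in LiKM-ACR, gave a log2 fold change of -0.56. These livers were set aside for their clock genes without a stated rule. By the clock gene sum only LiKM-ACR 3 lay far from its group, at 268 CPM, with LiKM-normal 3 at 614 and LiKM-ACR 2 at 462. They are called the 3 livers whose clock genes stood apart below, as a name for this choice and not as a result. In LiKM the log2 fold change on ACR was -1.23, a 2.34-fold lower level, given without a test. By equal mouse number the log2 differences were -0.85, -1.504 and -1.29.

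Between the strains, Fgfr3 rose 1.62-fold in LiKM-normal (log2 fold change 0.69, SE 0.22, edgeR adjusted p = 0.0431). The LiKM livers here are those by which the gene was chosen, so this value is not independent of the choice. The call rested on single livers, with an adjusted p of 0.0507 to 0.177 on leaving out LiK-normal 1, 2 or 3, LiK-ACR 1 or 2, LiKM-normal 2 or 3, or LiKM-ACR 1. Without LiKM-normal 3, the liver with the highest level, the log2 fold change was 0.41. The adjusted p was 0.155 among livers whose labelled identifier starts with KM and 0.0652 without the 3 livers whose clock genes stood apart. On ACR the strains had 31.6 ± 8.22 CPM in LiKM and 30.9 ± 4.35 in LiK, a log2 difference of 0.03 with a 95% interval of -0.45 to 0.51.

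Ntrk2 (chr13:58806569-59133970) was scarce, with 22.15 to 298 counts a library. In LiK-normal its level was 9.30, 16.9 and 12.9 CPM, and in LiK-ACR it was 3.03, 3.13 and 3.98 CPM. LiKM-normal had 16.9, 11.8 and 7.56 CPM and LiKM-ACR had 5.04, 1.83 and 1.34 CPM. As for Fgfr3, every liver on ACR lay below every liver on the normal diet, a split that is likewise not independent of the choice. The strains overlapped on both diets. The log2 fold change on ACR in LiK was -1.95 (SE 0.44, 95% interval -2.91 to -0.98), a 3.85-fold lower level, with an edgeR adjusted p of 0.106 over all genes. This difference did not pass in 18 of 23 alternatives. The adjusted p was 0.00448 with the 6 LiK livers alone, 0.00212 by DESeq2, 0.0326 without LiKM-ACR 1 and 0.00304 with the LiKM numbers as a block. Among livers whose labelled identifier starts with KM, of which LiK-normal has only 1, the log2 fold change was -1.46 (adjusted p = 0.398). With the first 2 components of the clock genes as covariates it was -1.91 (0.358), and that of Fgfr3 was -1.06 (0.149). LiK-ACR livers also had higher clock gene sums than those on the normal diet without overlap, and the part of this in the Ntrk2 and Fgfr3 values was not tested further.

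In LiKM the Ntrk2 level on ACR was 4.40-fold lower, a log2 fold change of -2.14 given without a test, and -2.93 without LiKM-ACR 1. By equal mouse number the log2 differences were -1.72, -2.60 and -2.38. Between the strains the log2 difference was -0.11 on the normal diet (95% interval -0.99 to 0.78) and -0.30 on ACR (-1.32 to 0.72), and neither passed (edgeR adjusted p = 0.878 and 0.718). As for Fgfr3, these strain values use the LiKM livers by which the gene was chosen and are not independent of the choice.

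The genes whose pattern over the 12 livers was nearest to that of Fgfr3 were Dip2a, Ska2, Klc3, Xrcc3 and Gys1. Nearness was the root mean square difference of log2 CPM after each gene was centred on its own mean, over 12039 genes with a mean of at least 1 CPM, predicted genes left out, and was 0.33 for Dip2a and 0.35 for Gys1. Fgfr3 itself had a root mean square deviation of 0.56 and a range of 2.04. Gys1, the muscle-type glycogen synthase, had 4.22 ± 0.669 CPM in LiK-normal, 2.74 ± 0.256 in LiK-ACR, 4.55 ± 0.438 in LiKM-normal and 3.37 ± 0.571 in LiKM-ACR. For Ntrk2 the nearest genes were Lad1 (0.61), Ttbk1, Hspa2, Fam25c and Olig1 (0.72), against its own deviation of 1.15. Lad1, which encodes an anchoring filament protein of epithelia, had 7.23 ± 2.35 CPM in LiK-normal, 2.68 ± 0.797 in LiK-ACR, 14.3 ± 4.59 in LiKM-normal and 4.43 ± 4.52 in LiKM-ACR. These are descriptions over livers that share their groups, and carry no test.

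**Figure D2:**
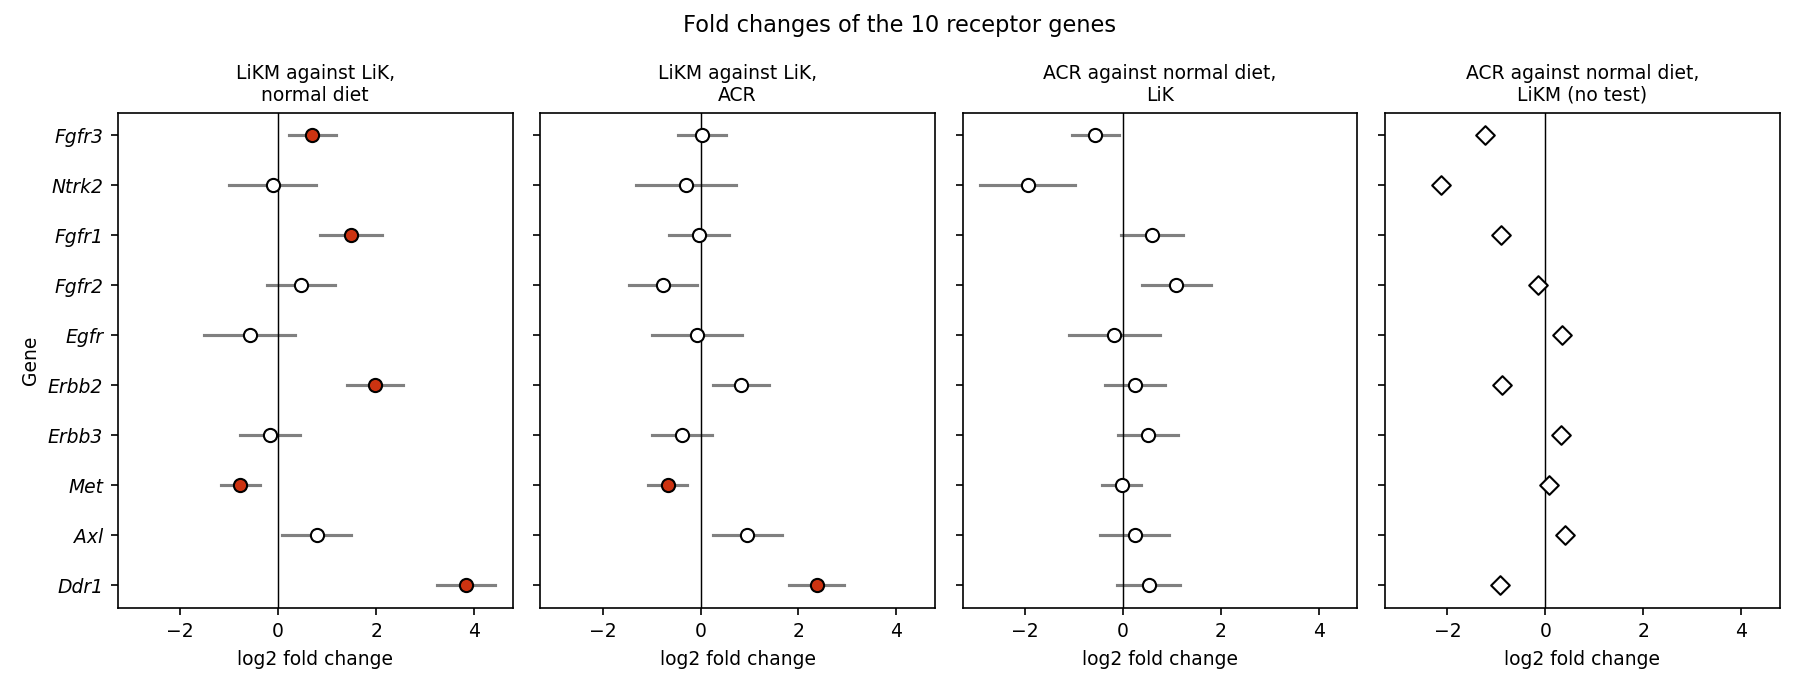
Log2 fold change of each receptor in 4 comparisons (horizontal axis), with 95% intervals of the edgeR fit for the 3 that were tested and filled red points where the adjusted p is under 0.05. Diamonds give LiKM-ACR against LiKM-normal without a test. Ddr1 lies farthest to the right in both strain comparisons, at 3.83 and 2.37, and Ntrk2 farthest to the left in both diet comparisons, at -1.95 and -2.14.

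Fgfr1 and Fgfr2 are the other FGF receptors of the set. Fgfr1, the form typical of mesenchymal cells (chr8:25513654-25575718), had 7.19, 6.34 and 7.87 CPM in LiK-normal and 12.3, 13.1 and 6.86 CPM in LiK-ACR. LiKM-normal stood at 19.2, 17.3 and 23.2 CPM and LiKM-ACR at 14.7, 6.64 and 10.3 CPM. LiKM-normal livers stood above all 9 others. Fgfr1 rose 2.79-fold in LiKM-normal (log2 fold change 1.48, SE 0.29, edgeR adjusted p = 0.00523). Among livers with the KM prefix the log2 fold change was 1.46, with an adjusted p of 0.109. On ACR the strains differed by -0.03 (95% interval -0.65 to 0.59). The untested log2 fold change on ACR in LiKM was -0.91, and -0.30 without the 3 livers whose clock genes stood apart.

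Fgfr2, whose epithelial form responds to FGF7 and FGF10, had 65.4, 23.03 and 61.0 CPM in LiK-normal and 119.6, 104.1 and 94.0 CPM in LiK-ACR. LiKM-normal stood at 53.3, 73.7 and 78.3 CPM and LiKM-ACR at 53.9, 57.9 and 74.1 CPM. LiK-ACR livers were thus higher than those of any other group, and LiK-normal 2 stood alone at the bottom. Fgfr2 was 2.13-fold higher on ACR in LiK (log2 fold change 1.09, 95% interval 0.39 to 1.79), which did not pass (edgeR adjusted p = 0.176) but did by DESeq2 (0.0297). In LiKM the untested log2 fold change on ACR was -0.14. The strain difference on ACR was -0.77 (adjusted p = 0.141), which passed with the 6 livers fitted alone (0.0284), without LiK-normal 2 (0.0187) and among KM livers (0.0336). Within each liver, the ratio of Fgfr2 to Fgfr3 in CPM was 0.507 to 1.53 in LiK-normal and 3.36 to 3.48 in LiK-ACR. The livers on ACR thus had the higher ratio in LiK. In LiKM the ratio was 0.792 to 1.08 on the normal diet and 1.77 to 2.41 on ACR. The lower Fgfr3 level on ACR in LiKM is what chose that gene, so the LiKM ratios are not independent of the choice. Fgfr4, the main FGF receptor of hepatocytes and not among the 10, had 33.4 ± 7.33 CPM in LiK-normal and 32.4 ± 5.07 CPM in LiKM-normal. On ACR its level was 32.1 ± 1.26 CPM in LiK and 29.5 ± 1.53 CPM in LiKM.

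The ErbB receptors divided into an abundant pair and a scarce one. Egfr (chr11:16752203-16918158), the receptor for EGF and TGF alpha, was the most abundant of the 10 in all groups. Its share of the counts of the 10, taken in each liver and averaged over the livers of a group, was 66.6% in LiK-normal, 62.4% in LiK-ACR, 57.4% in LiKM-normal and 63.4% in LiKM-ACR. Its level was 446, 1255 and 592 CPM in LiK-normal and 750.2, 733 and 542 CPM in LiK-ACR. LiKM-normal had 617, 509 and 403 CPM and LiKM-ACR had 1067, 432 and 428 CPM. LiK-normal 2 and LiKM-ACR 1 stood well above the rest of their groups, all groups overlapped, and no comparison passed (log2 fold changes -0.58, -0.07 and -0.18, edgeR adjusted p = 0.351, 0.936 and 0.879). The untested value on ACR in LiKM was 0.33, and -0.25 without LiKM-ACR 1.

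Erbb3 (chr10:128567523-128589652), a neuregulin receptor, had 71.6, 78.8 and 77.7 CPM in LiK-normal and 127, 87.1 and 112 CPM in LiK-ACR. LiKM-normal stood at 51.1, 72.6 and 78.4 CPM and LiKM-ACR at 46.7, 88.3 and 118 CPM. The LiK groups did not overlap, while the LiKM groups did and were wider. The log2 fold change on ACR in LiK was 0.52 (95% interval -0.10 to 1.13, edgeR adjusted p = 0.433), and the strain differences were -0.18 (0.698) on the normal diet and -0.37 (0.426) on ACR. Without the 3 livers whose clock genes stood apart, the strain difference on ACR was -1.23 and passed (0.0339), with LiKM-ACR 1, the liver of the lowest level, as the only one of its group.

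Erbb2 (chr11:98412470-98437716), the ErbB receptor with no ligand of its own, was scarce in LiK, with 10 to 24 counts a library. Its level was 1.13, 1.13 and 0.837 CPM in LiK-normal and 1.15, 0.932 and 1.65 CPM in LiK-ACR. LiKM-normal had 4.32, 4.37 and 3.66 CPM and LiKM-ACR had 2.05, 2.03 and 2.56 CPM. Every LiKM liver lay above every LiK liver, and LiKM-normal above LiKM-ACR. Erbb2 rose 3.94-fold in LiKM-normal (log2 fold change 1.98, SE 0.26, edgeR adjusted p = 0.000696). On ACR the strain difference of 0.83 did not pass (adjusted p = 0.0652, and 0.0521 to 0.784 over the 23 alternatives). The untested log2 fold change on ACR in LiKM was -0.89, and the diet difference in LiK was 0.26 (adjusted p = 0.72). Erbb4, the remaining family member, stayed at or below 1.25 CPM in group mean.

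Met (chr6:17463800-17573980), the receptor for hepatocyte growth factor, was the receptor that fell in LiKM on both diets. It had 122, 94.0 and 138 CPM in LiK-normal, 125, 120.1 and 102 CPM in LiK-ACR, 66.0, 87.0 and 54.5 CPM in LiKM-normal and 66.5, 84.7 and 67.1 CPM in LiKM-ACR. All 6 LiKM livers lay below all 6 LiK livers, and the diets overlapped in each strain. Met was 1.70-fold lower in LiKM-normal (log2 fold change -0.77, SE 0.18, edgeR adjusted p = 0.0135) and 1.59-fold lower on ACR (-0.67, SE 0.18, 0.0416). Its direction held under each of the 23 alternatives, and its calls were close to the threshold. On the normal diet the adjusted p was 0.0617 with scaling by library size alone (log2 fold change -0.38), 0.0551 without LiK-normal 3 and 0.0684 among KM livers. On ACR it was 0.0532 to 0.127 without LiK-normal 1, LiK-ACR 1, 2 or 3, or LiKM-ACR 1 or 3, 0.0524 with the replicate number as a block in all groups, 0.0813 with the identifier prefix as a covariate, 0.108 among KM livers, 0.0927 without the 3 livers whose clock genes stood apart, and 0.519 with the clock components. The sum of hepatocyte markers was 88352 to 99653 CPM in LiKM-normal and 116160 to 163656 in LiK on that diet. It overlapped between the strains on ACR (120836 to 158609 in LiKM, 146779 to 159935 in LiK). The part of hepatocyte content in the Met values was not tested. The diet difference of Met was -0.03 in LiK (95% interval -0.42 to 0.37), and the untested one in LiKM was 0.07.

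Axl (chr7:25757273-25788705) had 11.2, 28.5 and 19.1 CPM in LiK-normal and 19.0, 20.4 and 30.2 CPM in LiK-ACR. LiKM-normal stood at 36.7, 41.7 and 23.5 CPM and LiKM-ACR at 37.9, 45.4 and 52.0 CPM. On ACR every LiKM liver was above every LiK liver, and on the normal diet LiKM-normal 3 lay among the LiK livers. The strain differences were 0.79 on the normal diet (95% interval 0.09 to 1.49, edgeR adjusted p = 0.101) and 0.96 on ACR (0.26 to 1.66, adjusted p = 0.0778), and neither passed. On the normal diet it passed with library size scaling (0.0266), without LiK-normal 2 (0.0276), with the prefix as a covariate (0.0247) and among KM livers (0.042). On ACR it passed by DESeq2 (0.0275), with the 6 livers alone (0.0326) and without LiK-normal 1 (0.0406) or 2 (0.0454). Macrophage markers, 7 genes none of which was at 0 in any liver, summed to 441 to 482 CPM in LiKM-ACR and 210.2 to 428 CPM in LiK-ACR, and to 175 to 348 and 146 to 275 CPM on the normal diet. The 9 stellate markers summed to 486 to 554 CPM in LiKM-ACR against 340 to 423 CPM in LiK-ACR, and to 335 to 626 and 305 to 459 CPM on the normal diet. The part of these cells in the Axl values was not tested. Gas6, its ligand, is described below, and Mertk, a related receptor of macrophages, had group means of 16.8 to 19.0 CPM.

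Ddr1 (chr17:35681567-35704621) had the largest strain difference of the 10 on both diets. Its level was 1.20, 2.32 and 1.42 CPM in LiK-normal and 3.24, 2.13 and 1.92 CPM in LiK-ACR, from 17 to 45 counts a library. LiKM-normal stood at 19.8, 25.7 and 26.6 CPM and LiKM-ACR at 10.4, 12.3 and 15.004 CPM. The strains were far apart, and LiKM-ACR livers lay between LiK and LiKM-normal with no overlap. Ddr1 rose 14.2-fold in LiKM-normal (log2 fold change 3.83, SE 0.27, edgeR adjusted p = 3.01e-05) and 5.17-fold on ACR (2.37, SE 0.26, 0.00208). The first call held under all 23 alternatives and the second under 22, with the exception of the clock components as covariates (2.36, adjusted p = 0.239). The untested log2 fold change on ACR in LiKM was -0.93, and -0.92, -1.05 and -0.82 by equal mouse number. In LiK the diet difference was 0.53 (adjusted p = 0.445).

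By group mean, Ddr1 and Erbb2 moved with the biliary and progenitor markers. All 10 of those markers, among them Krt19, Krt7, Epcam and Sox9, rose in LiKM on both diets, with median log2 fold changes of 4.51 on the normal diet and 2.25 on ACR. Of these markers Cftr was at 0 in 1 liver and Cldn4 in 2 livers. Within LiK, the liver with the highest marker sum, LiK-ACR 1 at 185 CPM, also had the highest Ddr1 level of that strain, whereas its Erbb2 level of 1.15 CPM was not the highest. LiKM-normal 3 had the highest sum of all livers, 1029 CPM, but the lowest Erbb2 level of its group, 3.66 CPM. LiKM-ACR 3, with the highest sum of its group at 524 CPM, had the highest Erbb2 level there, 2.56 CPM. Markers of T and NK cells summed to 0.754 to 1.19 CPM in LiK-normal and 4.38 to 10.4 CPM in LiKM-normal. The part of any of these cells in the receptor values was not tested.

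**Figure D3:**
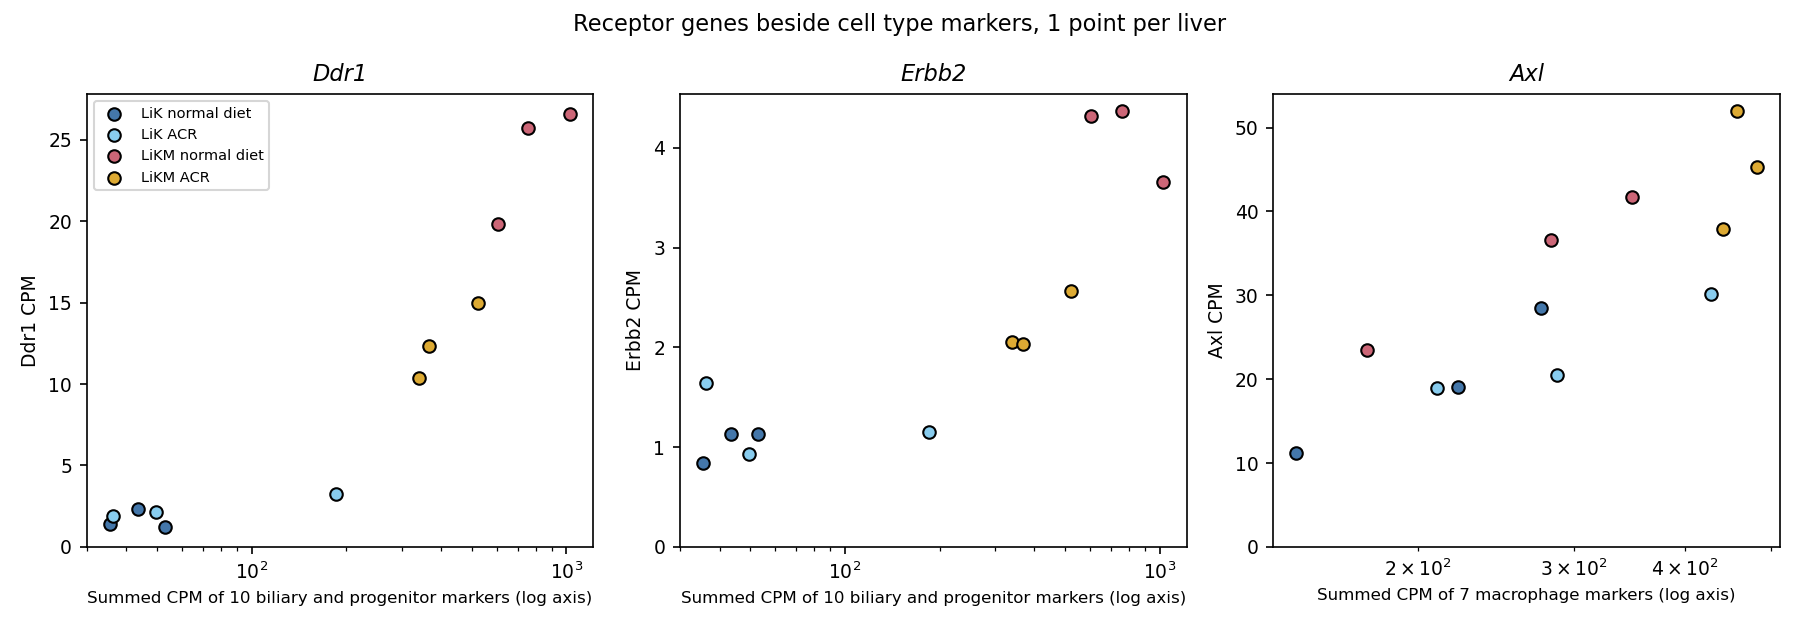
Ddr1 and Erbb2 level against the summed biliary and progenitor markers, and Axl level against the summed macrophage markers, all in CPM, with a point for each of the 12 livers coloured by group. LiKM livers lie at biliary sums of 340 to 1029 CPM and LiK livers at 35.4 to 185 CPM.

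On ACR in LiKM, the comparison that chose the set, 5 receptors had lower levels without overlap: Fgfr1, Fgfr3, Ntrk2, Erbb2 and Ddr1. None of the 10 had a higher level without overlap. Over all genes 10.6% did not overlap between these groups and 6.7% were lower in this way, which is given as background and from which nothing is read. Of the 5, Fgfr3, Erbb2, Ddr1 and Fgfr1 were also those that rose in LiKM-normal. LiKM-normal is the group that both values share. Over all 13880 genes, none passed by edgeR in this comparison without regard to the mouse number, with 1005 at an unadjusted p under 0.05. With the replicate number as a block within LiKM, whose same-numbered mice deviated together, 9 passed and 1502 had such a p, and DESeq2 without the block called 79. The median log2 fold change of the 10 was -0.52, beside -0.01 over all genes.

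Levels were compared between receptors as CPM per kilobase of exon, since long transcripts give more counts. Exon lengths came from GENCODE vM21, which may differ from the annotation used for counting. In LiK-normal the order of mean level was Egfr at 67.5, Met at 15.4, Erbb3 at 12.6, Fgfr3 at 6.39, Fgfr2 at 4.82, Axl at 3.90, Fgfr1 at 0.722, Ntrk2 at 0.675, Ddr1 at 0.345 and Erbb2 at 0.198. Neighbours whose livers overlapped were Met and Erbb3, Fgfr3 and Fgfr2, Fgfr2 and Axl, Fgfr1 and Ntrk2, and Ntrk2 and Ddr1. In LiK-ACR, Erbb3 at 18.1 and Met at 15.1 followed Egfr and overlapped, Fgfr2 at 10.3 came next without overlap, and Axl at 4.61 and Fgfr3 at 4.32 overlapped.

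In LiKM-normal the 6 receptors from Erbb3 at 11.2 to Ddr1 at 5.03 (Erbb3, Fgfr3, Met, Axl, Fgfr2, Ddr1) formed a run in which each overlapped the next. Fgfr3, at 10.3, was the third there. In LiKM-ACR, Axl at 8.96 overlapped Met at 9.48, Fgfr3 at 4.41 overlapped Fgfr2 at 5.999, and Ddr1 at 2.63 stood apart from its neighbours. Ntrk2 came last in each group but LiK-normal, at 0.142 in LiKM-ACR, 0.175 in LiK-ACR and 0.625 in LiKM-normal. It overlapped Erbb2 in LiK-ACR (0.239) and in LiKM-normal (0.790). The exon length of Ntrk2, 19292 bases with all annotated exons merged, was the longest of the set. In CPM its mean lay above that of Erbb2 in each group.

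**Figure D4:**
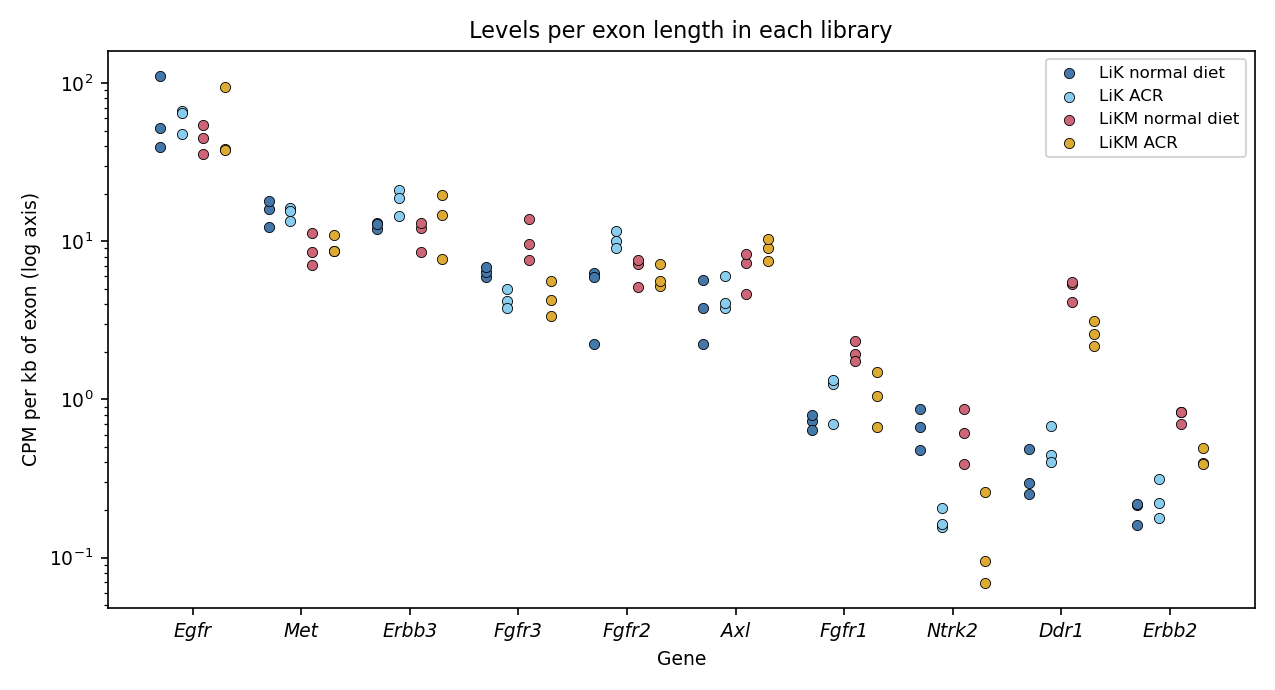
Level of each receptor per kilobase of exon (CPM per kb, logarithmic axis) in the 4 groups, with a point for each liver. Egfr lies above all others in each group, at group means of 45.0 to 67.5, and Ntrk2 has the lowest mean in both groups on ACR.

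Among ligands of these receptors, 17 of the 29 listed were expressed highly enough to test. In LiKM-normal 5 rose, beside 13.2% of all genes, and none fell (median log2 fold change 0.77). On ACR 2 rose, beside 5.55% of all genes, and none fell (0.68). The median between the diets in LiK was -0.29. Gas6, the ligand of Axl, rose from 40.3 ± 5.27 CPM in LiK to 154 ± 16.7 in LiKM-normal, 3.83-fold (edgeR adjusted p = 3.01e-05), and from 58.0 ± 6.57 to 93.1 ± 7.45 on ACR, 1.61-fold (adjusted p = 0.0105). Nrg1, a neuregulin that binds Erbb3, rose from 0.291 ± 0.368 to 3.48 ± 1.75 CPM on the normal diet (adjusted p = 0.00546). The Egfr ligands that rose on the normal diet were Hbegf (log2 fold change 1.84, adjusted p = 0.0138) and Btc (1.02, 0.0327).

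The ligands named next passed in no comparison. Bdnf, the ligand of Ntrk2, had 2.55 ± 1.03 CPM in LiK-normal, 1.89 ± 0.372 in LiK-ACR, 2.74 ± 0.927 in LiKM-normal and 2.30 ± 1.61 in LiKM-ACR. Hgf, the ligand of Met, had group means of 7.29 to 10.8 CPM, and Tgfa, an Egfr ligand made by hepatocytes, of 22.4 to 27.4 CPM. Fgf1, which binds all FGF receptors, had 166 ± 11.7 CPM in LiK-normal and 87.2 ± 6.16 in LiK-ACR, a log2 difference of -0.93 that did not pass (edgeR adjusted p = 0.393). Its LiKM groups were widely spread, at 99.1 ± 52.4 and 107 ± 55.4 CPM. The ligand count on the normal diet was 8 with library size scaling and 3 without LiK-normal 1 or among KM livers. On ACR it was 4 by DESeq2 and without LiK-normal 2, 1 without LiK-ACR 2 and 0 with the clock components.

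Co-receptors and the proteases that shed or activate ligands were all tested, 21 genes. On the normal diet 10 rose in LiKM and 4 fell, beside 13.2% and 8.61% of all genes. On ACR 5 rose and 2 fell, beside 5.55% and 4.24% of all genes. St14, which encodes matriptase, an activator of pro-HGF, rose from 0.530 ± 0.0498 to 12.3 ± 1.27 CPM on the normal diet, 23.01-fold (edgeR adjusted p = 0.000213). Spint1, the inhibitor of matriptase, rose 15.7-fold on the normal diet, from 0.479 ± 0.199 to 7.87 ± 0.214 CPM (5.86e-05), and 6.23-fold on ACR (0.00265). Rhbdf1, which guides the sheddase ADAM17, rose 3.13-fold on the normal diet (9.88e-05). On ACR, Klb, the co-receptor through which FGF15 and FGF21 act, was 2.07-fold lower in LiKM, at 24.1 ± 1.63 against 49.8 ± 1.10 CPM (0.00253). Fgfrl1, an FGF receptor without a kinase, was 2.45-fold lower, at 19.99 ± 1.83 against 49.1 ± 5.12 CPM (0.00323). The 4 falls on the normal diet became 0 with library size scaling and with the 6 livers alone, and 1 without LiK-normal 1. They became 2 without LiK-normal 3 or LiKM-normal 1 or 2, with the prefix as a covariate and among KM livers. The 10 rises became 4 without LiK-normal 1, 6 without LiK-normal 3 and 5 among KM livers. The 5 rises on ACR became 3 without LiK-ACR 1 or 2 or LiKM-ACR 1 or 3, with the prefix as a covariate, among KM livers and without the 3 livers whose clock genes stood apart. With the clock components as covariates no rise or fall on ACR was left, with 6 genes at an unadjusted edgeR p under 0.05, and by DESeq2 the 2 falls became 4.

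Of the other receptor tyrosine kinases, 33 of the 48 listed were tested. In LiKM-normal 10 rose and 2 fell, beside 13.2% and 8.61% of all genes. Igf1r, the receptor for IGF1, rose from 2.25 ± 0.427 to 8.10 ± 0.785 CPM, 3.58-fold (edgeR adjusted p = 0.00125). Flt3, a receptor of dendritic cell precursors, rose 9.10-fold from 0.225 ± 0.0746 CPM (0.00109), and Ltk rose 10.2-fold from 0.146 ± 0.119 CPM (0.00195). On ACR 3 rose and 2 fell, beside 5.55% and 4.24% of all genes. Insr, the insulin receptor, was 1.55-fold lower in LiKM, at 130 ± 11.3 against 202 ± 11.9 CPM (0.00735), Epha1 was 1.72-fold lower (0.0101) and Ptk7, which has an inactive kinase, was 7.21-fold higher (0.0109). On the normal diet Insr also fell (edgeR adjusted p = 0.0123) and Ptk7 also rose (0.00251), whereas Epha1 did not pass (0.298). Flt3 and Ltk also rose on ACR (0.0128 and 0.0388), whereas Igf1r did not pass there (0.292). The 3 rises on ACR became 1 without LiK-ACR 1, 0 without LiK-ACR 2, 0 without the 3 livers whose clock genes stood apart, and 5 by DESeq2 or without LiKM-normal 3. The 2 falls on the normal diet became 0 with library size scaling, with the prefix as a covariate, among KM livers and without LiK-normal 3. The count was 1 without LiK-normal 2 or any 1 of the 3 LiKM-normal livers.

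Downstream of the receptors, the 27 tested adaptors and transducers were split, with 5 higher and 4 lower in LiKM-normal and 1 each on ACR. Over all genes 13.2% were higher and 8.61% lower on the normal diet, and 5.55% higher and 4.24% lower on ACR. Src, the non-receptor tyrosine kinase, rose on the normal diet from 1.93 ± 0.652 to 9.41 ± 1.38 CPM, 4.91-fold (edgeR adjusted p = 0.00193). Plcg2, the phospholipase of blood cells, rose 3.22-fold (0.00353), and 2.07-fold on ACR (0.0418). Pik3cb, a catalytic subunit of PI3K, was 1.59-fold lower on the normal diet (0.00195), and Sos2, a Ras activator, was 1.37-fold lower on ACR (0.0418). With library size scaling the split on the normal diet was 9 higher and 0 lower. The 4 falls became 1 without LiK-normal 3 or among KM livers, and 2 without LiK-normal 1 or 2, LiK-ACR 3 or LiKM-normal 3, or with the 6 livers alone. The 5 rises became 3 without LiK-normal 1 or LiKM-normal 1 or 2.

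Of the 28 tested feedback inhibitors and modulators, 7 rose in LiKM-normal, beside 13.2% of all genes, none fell and 21 did not pass (median log2 fold change 0.19). On ACR 1 rose, beside 5.55% of all genes, and none fell. Spry1, a Sprouty inhibitor of FGF signals, rose on the normal diet from 4.30 ± 0.375 to 11.1 ± 0.578 CPM, 2.57-fold (edgeR adjusted p = 0.00138), and 2.45-fold on ACR (0.00606). Il17rd, an FGF antagonist also called Sef, rose 5.42-fold on the normal diet (0.00353). Flrt3, which binds FGF receptors and is known to aid rather than block their signal, rose 27.7-fold from 0.0423 ± 0.0373 CPM (0.00041), a level at which the fold depends on the count added by the fit. The 7 became 4 without LiK-normal 2, without LiKM-normal 3 and without the 3 livers whose clock genes stood apart, 3 among KM livers and 18 with library size scaling.

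Genes induced by receptor signals, 13 of 16 tested, had 7 higher and none lower in LiKM-normal, with a median log2 fold change of 0.86. On ACR 1 was higher. Over all genes 13.2% were higher on the normal diet and 5.55% on ACR. Etv5, a transcription factor induced by ERK, rose from 6.30 ± 1.93 to 13.0 ± 1.96 CPM, 2.08-fold (edgeR adjusted p = 0.00691), and Mcl1, a survival factor, rose 1.32-fold (0.0135). Ier3 rose 3.61-fold on the normal diet (0.0114) and 3.31-fold on ACR (0.0331). The 7 became 3 without LiK-normal 1, LiK-normal 2 or LiKM-normal 3, 4 with the prefix as a covariate and 0 among KM livers, where 8 had an unadjusted p under 0.05. Of the 139 genes tested in the 6 lists, 0 passed between the diets in LiK by edgeR, 21 had an unadjusted p under 0.05 and 7 passed by DESeq2. Over all 13880 genes these counts were 27, 1953 and 397. Between the strains on ACR 18 passed, beside 9.79% of all genes. With the clock components as covariates 0 passed and 19 had an unadjusted p under 0.05, beside 1 and 1211 over all genes.

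**Figure D5:**
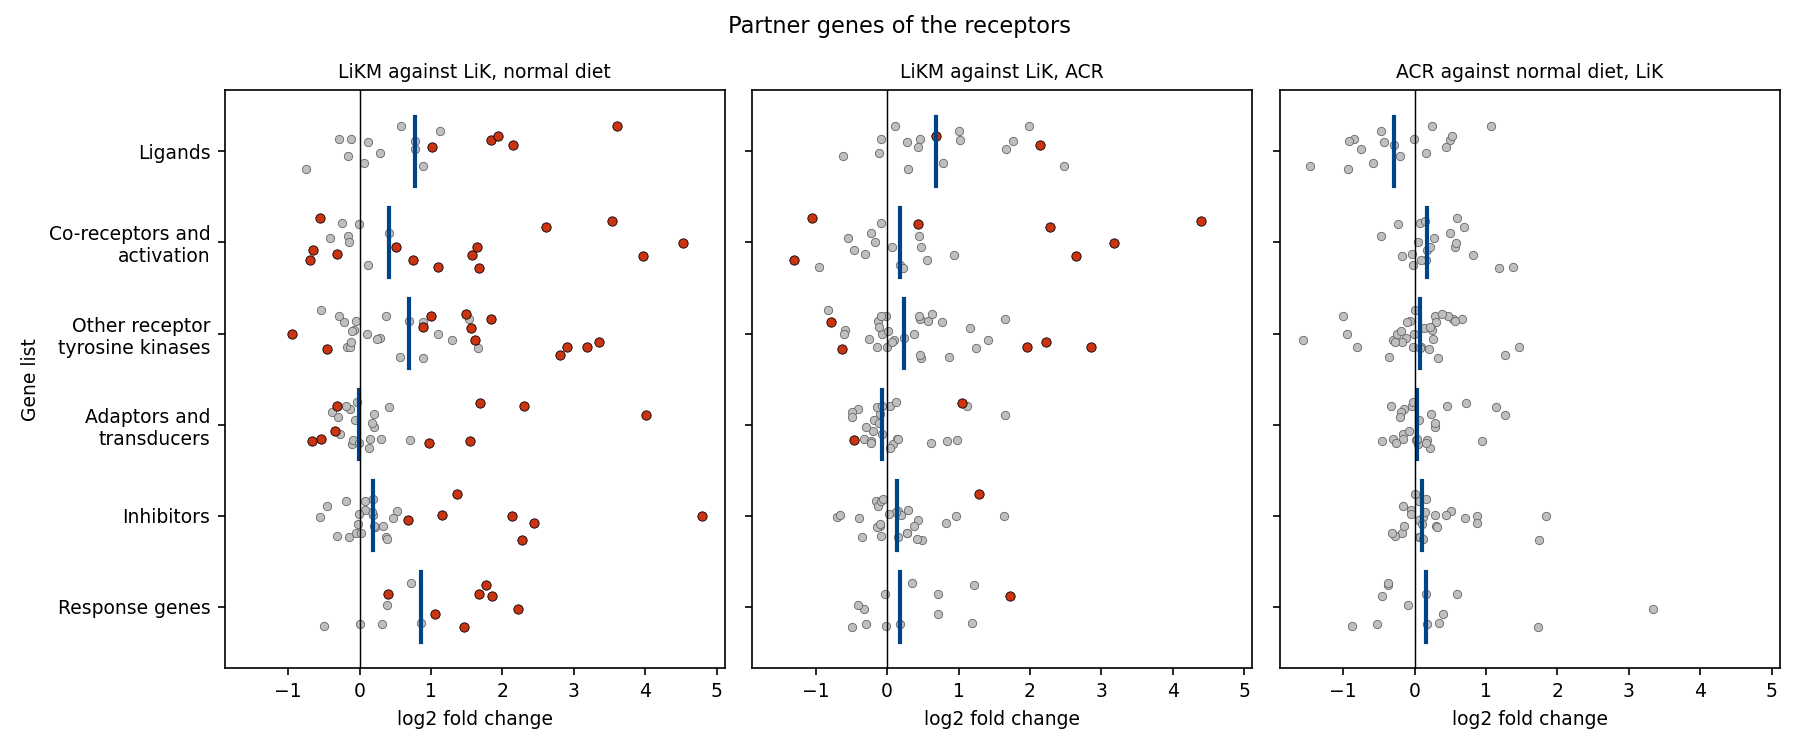
Log2 fold changes of the genes of 6 lists (other receptor tyrosine kinases, ligands, co-receptors and activation, adaptors and transducers, inhibitors, response genes) in the 3 tested comparisons. Each point is a gene, red where the adjusted p is under 0.05, and the blue bar is the median, which lies at 0.86 for the response genes and -0.00 for the adaptors between the strains on the normal diet.

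Exons of some receptors overlap those of other genes, and no source used here says whether reads were counted by strand. The antisense overlap is 998 bases for Fgfr3 with G630022F23Rik, 216 for Ddr1 with Gm4577, 164 for Fgfr1 with Gm16159 and 9 for Erbb2 with Mien1. Fgfr2 shares 314 exon bases with Ctbp2 on its own strand in this annotation. The values of these 5 genes are uncertain to the extent that reads there were shared. Ntrk2, Egfr, Erbb3, Met and Axl share no exon bases with another gene.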

How the data were processed

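Liver RNA of 12 mice, 3 in each group of strain and diet, was measured by RNA sequencing, and groups were read from the sample titles. The deposited table holds expected counts per gene symbol, of which 18.9% of the values above 0 are not whole (tolerance 1e-09). Counting with featureCounts 2.0.0 and the build mm10 are named in the submitters' processing notes. No source used here gives the aligner, the annotation, the strand setting or the treatment of shared reads. All columns matched a title (0 unmatched).

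Counts were rounded, filtered with filterByExpr (13880 genes kept, all 10 receptors among them) and scaled with TMM (factors 0.83 to 1.24). They were tested with edgeR 4.0.16 in R 4.3.3 (quasi-likelihood, robust) on all 12 livers with 1 coefficient per group. The common biological coefficient of variation was 0.203. P-values were adjusted by Benjamini-Hochberg over all genes, and "rose", "fell" and "passed" mean an adjusted p under 0.05. CPM use TMM factors, and log2 CPM a prior count of 2. Code was tested on simulated data. Libraries of a group differed by more than sampling noise (chi-square over its degrees of freedom, 15.7 to 65.1).

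The receptors, the lists of partner genes and markers and the tests were chosen with earlier results of these data known. From each partner list the text names the genes past the threshold with the 3 smallest p in a comparison, and other genes by choice after their values were seen. For the receptors, the comparison of diets in LiKM and the difference of diet effects were not tested, and for the first only counts over all genes are given as background.

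Alternatives were library size scaling, DESeq2 1.42.0, other filters (none, or at least 1 CPM in 3 libraries), the 6 livers of a comparison alone, each library left out, blocks by mouse number, the identifier prefix (KM or MP, meaning not given; MP are LiK-normal 2 and 3 and LiKM-ACR 3) and clock genes. Same-numbered LiKM mice deviated together from their group means (r = 0.37, 0.22 and 0.48 across genes), which pairs them by the data and not by a label. Other groups did not (r = -0.10 to 0.08). Some items of the listed genes and of the strains' description are not reported here.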

Additional observations from a re-analysis of the deposited data

How the results depend on the processing

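Of the tests of the 10 receptors in 3 comparisons under 23 alternatives, 642 kept their direction and side of the threshold or had no call to turn, 26 lost a call and 22 gained one, and none of the called values reversed. Genes past the threshold between the strains on the normal diet, 3031, became 4831 with scaling by library size alone (97.6% of them higher against 60.6%), 1038 among KM livers and 1658 to 3384 on leaving out 1 library. Library size scaling moved the all-gene median log2 fold change to 0.40 there, 0.14 between the strains on ACR and 0.13 between the diets in LiK, and on ACR the share of higher calls from 56.7% to 77.9%. Between the strains on ACR, 1359 became 2150 by DESeq2, 535 among KM livers, 555 without the 3 livers whose clock genes stood apart, 1 with the clock components (1211 at an unadjusted p under 0.05) and 312 to 1695 on leaving out 1 library. Between the diets in LiK, 27 became 397 by DESeq2, 812 with the 6 livers alone, 624 without those 3 livers, 16 with the prefix as a covariate, 0 among KM livers (1484 unadjusted), 0 with the clock components (1127 unadjusted) and 0 to 108 on leaving out 1 library. The count was 0 without LiK-normal 2 or 3 or LiK-ACR 1. The KM livers leave 1 library of LiK on the normal diet, which is assumed to vary like the others. The number of receptors with a log2 fold change below 0 on ACR in LiKM, 6, stayed within 6 to 9.

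With the replicate number as a block in all groups, 3006, 1312 and 36 genes passed in the 3 comparisons. With the pairing applied within LiKM only, 4250, 2473 and 701 passed. That block also takes out spread between LiKM mice that a strain comparison should keep, so its strain counts are upper values. The causes of these changes were not tested. Depth limits Erbb2, Ddr1 and Ntrk2 most, with as few as 10, 17 and 22.15 counts in a library.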
